A study of Mus musculus with 22 samples.

Results

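Primary biliary cholangitis and autoimmune hepatitis are liver diseases marked in humans by autoantibodies against a short list of self proteins. The 10 mouse genes described here code for known targets of such antibodies and were chosen by name from that knowledge. They are 10 of the 24786 genes in each deposited expression table. Of these, 5 sit in mitochondrial enzyme complexes: Dlat, Pdha1 and Pdhx in pyruvate dehydrogenase, Dbt in branched-chain keto acid dehydrogenase and Dlst in 2-oxoglutarate dehydrogenase. Sp100 and Nup210 code for nuclear targets, a component of PML nuclear bodies and a glycoprotein of the nuclear pore membrane. Ftcd, Sepsecs and Asgr1 code for targets in autoimmune hepatitis: a folate enzyme of the liver, an enzyme of selenocysteine synthesis and a subunit of the asialoglycoprotein receptor of hepatocytes.

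Aire is a transcription factor of medullary thymic epithelial cells. It lets those cells express many genes that are otherwise restricted to other tissues, so that developing T cells meet the encoded proteins and self-reactive cells are removed or diverted. The question was whether the loss of Aire lowers the autoantigen genes in thymus, and what their levels were in liver, the organ attacked.

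The series holds bulk RNA sequencing of 22 mouse samples, of which 15 were used. Thymus, as total cells of the tissue, came from TG Aire-/- mice, which lack both Aire alleles and carry the transgene, from Aire-/- mice, which lack Aire and carry no transgene, and from TG Aire+/- mice, which carry the transgene and keep 1 Aire allele, with 3 libraries each. Liver of the second batch, also as total cells, came from CD8-depleted TG Aire-/- mice, from TG Aire-/- mice that were not depleted and from Aire+/+ mice, with 2 libraries each. TG stands here for the dnTGFβRII transgene that the series title names, a dominant-negative type II TGF-β receptor made in T cells. The labels do not name its promoter, and they do not say how CD8 cells were depleted. Strain was C57BL/6 and the age range 2 to 4 weeks throughout. No thymus group had both Aire alleles, and TG Aire-/- livers differ from Aire+/+ livers in the transgene as well as in Aire. Aire-/- thymus likewise differs from TG Aire+/- thymus in both. In comparisons of Aire-/-, or of the mean of both Aire-null groups, with TG Aire+/-, Aire and the transgene therefore cannot be told apart. Nothing in the labels says that replicates came from separate animals, so p-values reflect only how these libraries vary, and that variation could be technical. Values are RPKM, reads scaled to gene length and to mapped reads.

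The mitochondrial targets share a feature that autoantibodies are known to recognise. The E2 subunits Dlat, Dbt and Dlst, and the related binding protein Pdhx, carry lipoic acid on a lysine of their lipoyl domains, and the main epitopes in human disease lie around that lysine. The coding sequence around it is shown because it is what 4 of the 5 mitochondrial members have in common. Each stretch has 27 bases, read 5′ to 3′ on the coding strand from GENCODE vM21 on GRCm38, with the lysine codon in capitals.
Dlat, first domain: gttgaaactgatAAAgccactgttggg
Dlat, second domain: atagagaccgacAAGgccaccataggc
Pdhx: attgagacggacAAGgctgtggtcacc
Dbt: gttcaaagtgacAAGgcctctgtcacc
Dlst: attgagacagacAAGacttctgtgcag

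Both Dlat sites lie on chromosome 9 on the minus strand. The first is in 1 exon at chr9:50658263-50658289, at codon 131 of 642, and the second, at codon 258, is split by an intron. The Pdhx site is at chr2:103046760-103046786 on the minus strand, at codon 97 of 501. The Dbt site is at chr3:116533304-116533330 on the plus strand, at codon 105 of 482. The Dlst site, at codon 111 of 454, is split by an intron on the plus strand of chromosome 12. All are exonic and coding. Pdha1, on the X chromosome, codes for the E1α subunit and has no lipoyl domain.

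Inferred depths were 22160000 to 29820000 reads in thymus and 20080000 to 22840000 in liver. Aire itself had 20.3, 6.50 and 7.63 RPKM in the TG Aire-/- thymus libraries and 27.2, 29.5 and 15.95 RPKM in the Aire-/- libraries, against 13.6, 10.9 and 10.2 RPKM in TG Aire+/-. A whole-gene value counts reads outside a deleted exon too, so it does not check the genotype. Replicate 1 of TG Aire-/- thymus stood apart from the other libraries. Its 10 markers of double-positive thymocytes, the main cell of the organ, summed to 221 RPKM, and its 7 adipocyte markers to 1084 RPKM. Its B cell markers summed to 288.5 RPKM, its macrophage markers to 1197 RPKM and its markers of cortical thymic epithelium to 100.7 RPKM. In TG Aire+/- thymus these sums were 70.3 to 87.1 RPKM for adipocytes and 29.2 to 31.7 RPKM for B cells. They were 171 to 231.5 RPKM for macrophages and 808 to 915 RPKM for cortical epithelium. Over the 3 libraries of a group, the thymocyte sums reached up to 2480 RPKM in TG Aire-/-, and they were 1899 to 2502 RPKM in Aire-/- and 2306 to 2479 RPKM in TG Aire+/-. The members' differences from TG Aire+/- thymus, and the counts in gene lists, are therefore also given without that library. Defining hepatocyte markers were nearly absent from thymus: the 10 markers summed to 3.36 to 14.0 RPKM in TG Aire-/-, 5.61 to 7.84 RPKM in Aire-/- and 8.34 to 12.6 RPKM in TG Aire+/-.

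In thymus, 8 of the 10 autoantigen genes were expressed at levels between about 1 and 70 RPKM in every genotype, and none of the 10 passed the test for a difference from TG Aire+/- in either Aire-null group. The remaining 2, Ftcd and Asgr1, were far below 1 RPKM in all 9 libraries, those with an Aire allele included. At that level a fall could not be resolved. Differences are given on the scale log2(RPKM + 1), where 1 is a 2-fold difference and changes of low genes are understated. They were tested across all genes with limma, with Benjamini-Hochberg adjusted p-values and a threshold of 0.05. Genes had to reach 1 RPKM in at least 3 thymus libraries to be tested. In whole tissue, fewer cells of a type and less RNA per cell cannot be told apart. A fall confined to a minor cell type can also go unseen.

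**Figure D1:**
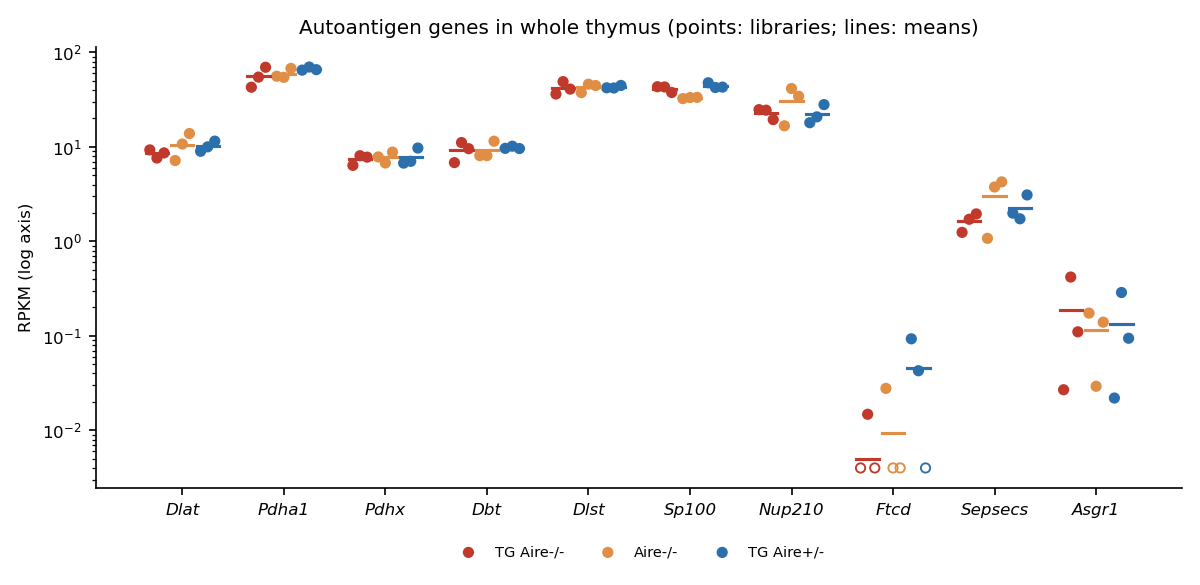
RPKM (log axis) of the 10 autoantigen genes in the 9 thymus libraries, by genotype. Points are libraries, lines are group means over 3 libraries, and open circles at the bottom mark libraries listed at 0. The groups overlap for every gene except Sp100, which is lowest in Aire-/-, and Ftcd and Asgr1 lie below 1 RPKM in all libraries.

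Dlat codes for the E2 core of pyruvate dehydrogenase, the main target of antimitochondrial antibodies. It had 9.30, 7.63 and 8.64 RPKM in TG Aire-/- thymus and 7.18, 10.7 and 13.9 RPKM in Aire-/- thymus, against 8.99, 10.0 and 11.5 RPKM in TG Aire+/- thymus. The 3 groups overlap. Its difference was -0.23 (95% interval -0.76 to 0.30) for TG Aire-/- minus TG Aire+/- and 0.02 (-0.52 to 0.55) for Aire-/- minus TG Aire+/-. Without replicate 1 of TG Aire-/- the first difference was -0.29.

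Pdha1, the catalytic E1α subunit of the same complex, was the most abundant member in thymus. It had 42.9, 54.8 and 69.7 RPKM in TG Aire-/- libraries and 56.0, 54.5 and 67.8 RPKM in Aire-/- libraries, against 65.0, 70.1 and 65.7 RPKM in TG Aire+/- libraries. The lowest value belongs to replicate 1 of TG Aire-/-, the library poor in thymocyte markers, and the groups overlap. Its difference was -0.28 (-0.77 to 0.20) for TG Aire-/- minus TG Aire+/-, and -0.11 without that library. Pdhx, the protein that binds E3 to the pyruvate dehydrogenase core, averaged 7.41 ± 0.91 RPKM in TG Aire-/- and 7.81 ± 1.03 RPKM in Aire-/-, against 7.84 ± 1.65 RPKM in TG Aire+/- (SD, n = 3 each). Those 3 means lie closer together than the libraries of any group.

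The E2 subunits of the sister complexes did not pass the test either. Dbt, which transfers acyl groups in the breakdown of leucine, isoleucine and valine, differed by -0.11 (-0.61 to 0.39) in TG Aire-/- and by -0.10 (-0.59 to 0.40) in Aire-/-, each against TG Aire+/-. Dlst, its counterpart in the citric acid cycle, differed by -0.04 (-0.45 to 0.37) and -0.01 (-0.43 to 0.40) in the same comparisons. Dlst had the narrowest intervals of the 5 mitochondrial members.

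Sp100 was the member with the smallest p between thymus genotypes, and its values set Aire-/- libraries apart from both groups with the transgene. It had 43.4, 43.1 and 37.7 RPKM in TG Aire-/- thymus and 32.5, 33.3 and 33.4 RPKM in Aire-/- thymus, against 47.8, 42.6 and 43.0 RPKM in TG Aire+/- thymus. The 3 Aire-/- libraries lie below all 6 others, while TG Aire-/- and TG Aire+/- overlap. Aire-/- minus TG Aire+/- was -0.41 (-0.78 to -0.05), with an unadjusted p of 0.0311 and a limma adjusted p of 1 over all genes, so it did not pass the test. It was the only tested member whose groups did not overlap in this comparison, where 5.49% of all genes tested were lower and 2.26% higher without overlap. Between the genotypes without Aire, TG Aire-/- minus Aire-/- was 0.31 (-0.05 to 0.68) with a limma adjusted p of 0.61. In that comparison, too, it was the 1 tested member without overlap, where 2.27% of genes were higher and 6.42% lower without overlap. Without replicate 1 of TG Aire-/- it was 0.28. Between the pair that share the transgene and differ in Aire, TG Aire-/- minus TG Aire+/- was -0.10 (-0.47 to 0.27). No tested member was free of overlap there, nor for both Aire-null groups against TG Aire+/-, where 7.88% and 0.621% of genes were lower and 1.47% and 0.127% higher without overlap. In the fit without the filter on low values, Aire-/- minus TG Aire+/- was -0.41 (-0.67 to -0.16) for Sp100. Its unadjusted limma p was 0.00594 and its limma adjusted p 0.643. For the mean of both Aire-null groups that fit gave -0.26 (-0.48 to -0.03), with an unadjusted limma p of 0.0287, and Sp100 was not called. The gene spans chr1:85649988-85709998 on the plus strand of GRCm38, and mouse chromosome 1 also carries Sp100-related sequences, so a single-gene value is uncertain where reads could be split between copies.

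Sp100 is known in humans as an interferon-inducible gene. Over the 9 thymus libraries the genes with the most similar profile were Samd9l (Pearson r = 0.940), Rtp4 (0.935) and Gal (0.930), the 3 highest among 12568 genes, given as a description. Samd9l and Rtp4 are known as interferon-inducible genes. In a list of 20 interferon-stimulated genes, none passed the test in any thymus comparison. Their estimates were below 0 for 19 of 20 in Aire-/- minus TG Aire+/-, with a median of -0.47 against -0.01 over all genes. For TG Aire-/- minus TG Aire+/- the count was 14 of 20, with a median of -0.09 against -0.14. For TG Aire-/- minus Aire-/- it was 5 of 20, with a median of 0.29 against -0.11. With replicate 1 of TG Aire-/- left out, 19 of the list were tested and none was called. The counts below 0 were then 15 of 19 for TG Aire-/- minus TG Aire+/-, with a median of -0.32 against -0.11, and 6 of 19 for TG Aire-/- minus Aire-/-, with a median of 0.04 against -0.09. These comparisons share groups and are not independent of each other. The part of interferon in the level of Sp100, in thymus or in liver, was not tested.

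The Sp100 promoter window is shown because Sp100 rose in the same livers as genes of that kind. It spans chr1:85649738-85650037 on the plus strand of GRCm38.p6, in RefSeq's annotation, from 250 bases before the start to 50 after it, with TTTC and GAAA in capitals.
Sp100: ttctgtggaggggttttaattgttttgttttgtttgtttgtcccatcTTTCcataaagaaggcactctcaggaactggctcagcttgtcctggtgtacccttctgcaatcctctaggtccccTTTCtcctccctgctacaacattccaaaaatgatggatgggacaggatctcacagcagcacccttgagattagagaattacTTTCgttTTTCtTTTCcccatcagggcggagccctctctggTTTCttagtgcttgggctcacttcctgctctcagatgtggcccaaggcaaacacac

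GAAA, a core found in interferon response elements, matched 6 times counting both strands. Of 32851 promoter windows of the same length, 13.9% hold at least as many matches, and the median window holds 3. The Dlat window holds 7, and Dlat was not called in any liver comparison. The part of these matches, or of interferon, in the level of Sp100 was not tested. The spaced pair GAAA-NN-GAAA, searched on both strands, is in 3.44% of windows and has no match in the windows of the 8 members for which there is a promoter entry. Absence of those letters says nothing about the factors that bind there.

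Nup210 (chr6:91013068-91116829, minus strand), the gp210 antigen of the nuclear pore membrane, varied most within Aire-/- thymus. It had 24.8, 24.5 and 19.5 RPKM in TG Aire-/- libraries and 16.7, 41.5 and 34.4 RPKM in Aire-/- libraries, against 18.0, 20.8 and 28.0 RPKM in TG Aire+/- libraries. Replicate 1 of Aire-/- was the lowest of all 9 and replicate 2 the highest. Neither difference from TG Aire+/- passed the test, at 0.05 (-0.66 to 0.77) for TG Aire-/- and 0.38 (-0.33 to 1.10) for Aire-/-. Replicate 1 of Aire-/- was also the lowest library for Dlat and for Sepsecs, and with 11649 genes at 1 RPKM or more it had the fewest of the Aire-/- libraries.

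Among the hepatitis antigens, Sepsecs, which makes the selenocysteine carried by its transfer RNA, had 1.25, 1.71 and 1.95 RPKM in TG Aire-/- thymus and 1.08, 3.76 and 4.26 RPKM in Aire-/- thymus, against 1.99, 1.74 and 3.10 RPKM in TG Aire+/- thymus. The groups overlap. Its difference was -0.30 (-1.09 to 0.49) for TG Aire-/- and 0.21 (-0.57 to 1.0) for Aire-/-, each against TG Aire+/-.

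Ftcd and Asgr1 are the members closest to tissue-restricted antigens, and thymus held almost none of their RNA. Ftcd, which joins histidine breakdown to the folate cycle, had 0, 0.0148 and 0 RPKM in TG Aire-/- thymus and 0.0278, 0 and 0 RPKM in Aire-/- thymus, against 0.0931, 0.0428 and 0 RPKM in TG Aire+/- thymus. The 2 highest libraries are TG Aire+/-, and each group holds a library listed at 0. The highest corresponds to 8.29 reads by inferred depth, where 3 reads are worth 0.0315 to 0.0424 RPKM, so a difference could not be resolved at this depth. Asgr1 (chr11:70054085-70057894, plus strand), which takes up desialylated glycoproteins in hepatocytes, had 0.0269, 0.420 and 0.110 RPKM in TG Aire-/- thymus and 0.174, 0.0293 and 0.140 RPKM in Aire-/- thymus, against 0.0220, 0.288 and 0.0944 RPKM in TG Aire+/- thymus. The 3 groups overlap for Asgr1, and its highest library is a TG Aire-/- one. It corresponds to 16.6 reads by inferred depth, where 3 reads are worth 0.0758 RPKM. Neither gene passed the filter on low values. In a limma fit without that filter, TG Aire-/- minus TG Aire+/- was -0.06 for Ftcd and 0.06 for Asgr1, with adjusted p of 0.852 and 0.926. They were -0.05 and 0.15 without replicate 1 of TG Aire-/-, with adjusted p of 0.871 and 0.898. For values this low even a fall to 0 is small on the log2(RPKM + 1) scale. The lack of a call therefore says nothing about a loss of either gene.

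Counted together, 0 of the 8 members tested were called in each of the 3 comparisons of Aire-null thymus with TG Aire+/-, where limma called 0% of the 12568 genes. At an unadjusted p under 0.05 there were 279 genes for TG Aire-/-, 118 for Aire-/- and 86 for the mean of both groups, and the members among them numbered 0, 1 and 0. The estimates of the 8 members were below 0 for 7 in TG Aire-/- minus TG Aire+/-, with a median of -0.11, where 68.6% of all genes were below 0 and the median gene was at -0.14. In Aire-/- minus TG Aire+/- they were below 0 for 4 of 8. For the mean of both Aire-null groups the median was -0.07 for the members and -0.07 for all genes. A fall to 50% of the mean TG Aire+/- level, set on the log2(RPKM + 1) scale of each gene, lies outside the 95% interval of 7 of the 8 members for TG Aire-/- and for the mean of both groups, with Sepsecs the exception in both, and of all 8 for Aire-/-. For Sepsecs such a fall is -0.62, against lower bounds of -1.09, -0.72 and -0.57 in these comparisons. The counts were also 7, 7 and 8 without replicate 1 of TG Aire-/-. These are levels of whole thymus, whose main cell is the double-positive thymocyte. A fall confined to medullary epithelial cells, where Aire acts, could go unseen in them, so these intervals do not address it. Without replicate 1 of TG Aire-/-, limma called 50 genes in TG Aire-/- minus TG Aire+/-, all lower and no member among them. The members not yet given without it were then at 0.03 for Pdhx, 0.07 for Dbt, 0.06 for Dlst, -0.14 for Sp100, -0.01 for Nup210 and -0.19 for Sepsecs. For the mean of both Aire-null groups they ran from -0.27 for Sp100 to 0.19 for Nup210, where limma called 15 genes and no member among them. Between the 2 Aire-null groups limma called 2 genes, 0.0159% of those tested, and no member.

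Genes known to depend on Aire fell in the same libraries once low values were let in. Of 19 listed self-antigen genes of that kind, 17 could be tested without the filter on low values, and 12 fell in TG Aire-/- thymus against TG Aire+/-, where 0.266% of all genes fell. In Aire-/- thymus 9 of the 17 fell, where 0.190% of all genes did. Calls in either direction made up 0.270% and 0.194% of genes in these comparisons and 0.270% for the mean of both Aire-null groups, and none of the 10 autoantigen genes was among them. Without replicate 1 of TG Aire-/-, 12 of the list fell in TG Aire-/- and 10 in Aire-/-. Markers of medullary thymic epithelium, the cell that expresses Aire, were also low in part of these libraries. The 10 markers, Aire included, summed to 1732, 325.6 and 153.1 RPKM in TG Aire-/- and 528.5, 370.1 and 290.8 RPKM in Aire-/-, against 536.7, 435.6 and 398.6 RPKM in TG Aire+/-. None was at 0 in any library. Their estimates were below 0 for 9 of 10 in TG Aire-/- (median -0.47) and 6 of 10 in Aire-/- (median -0.04), each against TG Aire+/-, and none was called. With replicate 1 of TG Aire-/- left out, all 10 were below 0 in that group (median -0.84), and Krt5 and Fezf2 were called lower with the filter on low values, none without it. The part of these cells in the falls of the Aire-dependent genes was not tested. That list was chosen with earlier results of these data known. Its falls do not show that a fall of the autoantigen genes in medullary epithelial cells could be seen in whole thymus. Among the largest falls were Tff3, a mucosal trefoil peptide, which averaged 0.259 RPKM in TG Aire-/- and 0.545 RPKM in Aire-/-, against 2.80 RPKM in TG Aire+/-. The gut hormone gene Pyy averaged 0.168 RPKM in TG Aire-/- and 0.0450 RPKM in Aire-/-, against 3.31 RPKM in TG Aire+/-. Reg3b, an antimicrobial lectin of the gut, averaged 0.150 RPKM in TG Aire-/- and 0.343 RPKM in Aire-/-, against 2.5 RPKM in TG Aire+/-. Other genes called in TG Aire-/- were low in every group. Cela3b, Krt4, Clps, Gip, Pgc and Crabp1 averaged below 1 RPKM in TG Aire+/- too, from 0.316 RPKM for Cela3b upward. Calls at such levels rest on few reads.

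The log2 differences from TG Aire+/- were -1.60 and -1.30 for Tff3, -1.85 and -2.0 for Pyy and -1.61 and -1.39 for Reg3b, in TG Aire-/- first and in Aire-/- second. Their limma adjusted p-values in the unfiltered fit ran from 0.0107 to 0.027. With the filter only 9 of the list were tested, most of which reached 1 RPKM only through TG Aire+/-, and none was called there (Tff3 limma adjusted p 0.0783 in TG Aire-/-). All 9 were called lower in TG Aire-/- once its replicate 1 was left out, and 2 in Aire-/-, each against TG Aire+/- (Tff3 limma adjusted p 0.0139 in TG Aire-/-). Estimates above 0 in Aire-/- were those of the milk protein gene Csn2, named here after its values were seen, and of the skin gene Sprr2a1, which has near-identical copies. Sprr2a1 is nonetheless counted among the genes that fell in TG Aire-/- without the filter. It averaged 2.43 RPKM in TG Aire-/- and 17.4 RPKM in Aire-/-, against 12.4 RPKM in TG Aire+/-. With the filter it was called lower in TG Aire-/- than in Aire-/- (-2.39, limma adjusted p 0.0274), so its fall was not shared by both Aire-null groups.

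**Figure D2:**
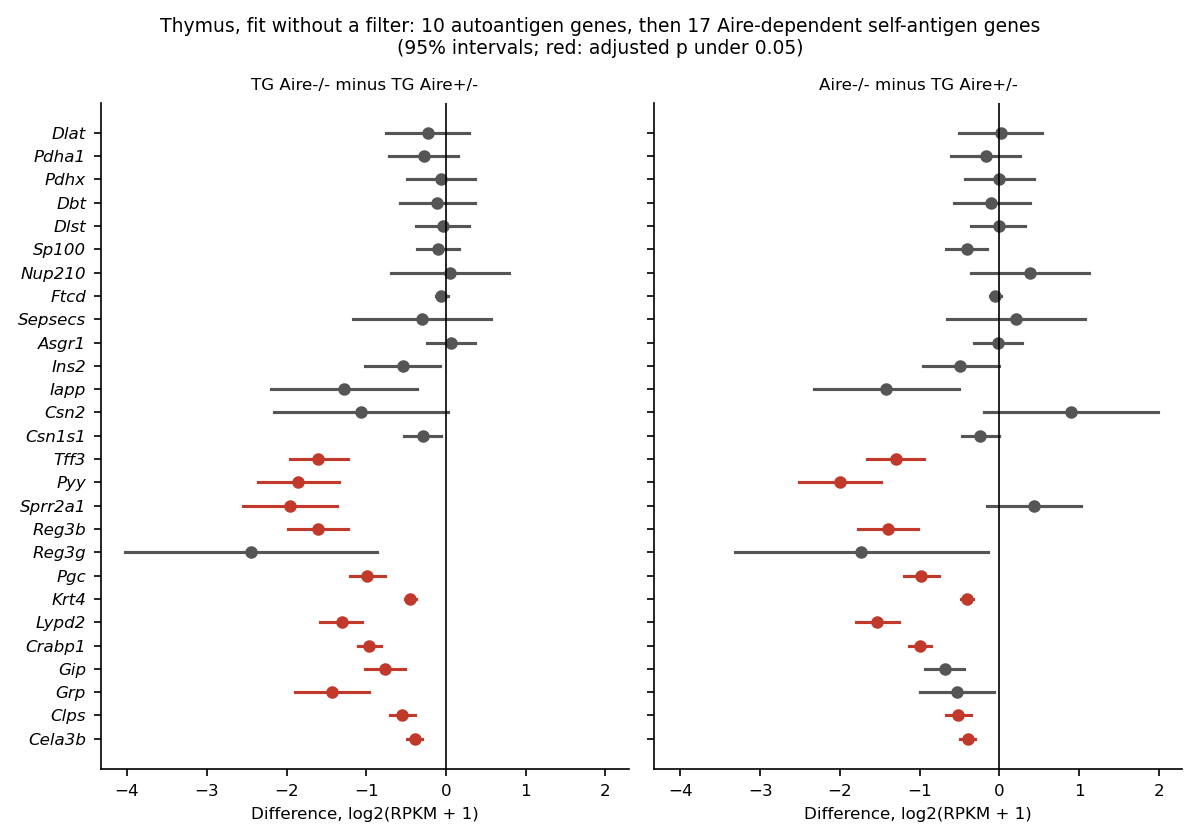
Differences on the log2(RPKM + 1) scale (x axis) with 95% intervals for the 10 autoantigen genes and, under them, 17 Aire-dependent self-antigen genes, from the thymus fit without a filter on low values. Left, TG Aire-/- minus TG Aire+/-; right, Aire-/- minus TG Aire+/-; red marks an adjusted p under 0.05. The intervals of the autoantigen genes include 0 in both panels, except that of Sp100 on the right (-0.41, 95% interval -0.67 to -0.16). None of the autoantigen genes is red, and Ftcd and Asgr1 are too low for a fall to show on this scale. Of the Aire-dependent genes, 12 and 9 are red and below 0.

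Partner genes of the members showed no called change in either Aire-null thymus group against TG Aire+/-. Of 9 partners in the pyruvate dehydrogenase complex (its other subunits, kinases and phosphatases) the estimates were below 0 for 8 in TG Aire-/- and 2 in Aire-/-, each against TG Aire+/-. Of 14 nuclear pore genes they were below 0 for 13 in TG Aire-/- and 3 in Aire-/-. Of 10 genes of PML bodies they were below 0 for 6 in TG Aire-/- and 8 in Aire-/-. Of the genes for lipoate attachment, 1 of 5 was below 0 in TG Aire-/- and 2 of 5 in Aire-/-. Over all genes tested, 68.6% of estimates were below 0 in TG Aire-/- and 51.5% in Aire-/-. None of these partners was called without replicate 1 of TG Aire-/-, and the counts below 0 in TG Aire-/- were 6 of 8, 13 of 14, 5 of 9 and 3 of 5 in the order given.

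The 10 genes ranked differently in liver. Over the 2 Aire+/+ livers, Asgr1 averaged 383 RPKM, Ftcd 65.9, Dlst 46.2, Dbt 40.0, Pdha1 30.5, Dlat 8.57, Pdhx 6.91, Sepsecs 6.30, Nup210 2.69 and Sp100 2.06 RPKM. Neighbours in that order whose libraries overlap are Pdhx and Sepsecs, and Dlat and Pdhx. In thymus, over all 9 libraries, the order was Pdha1, Dlst, Sp100, Nup210, Dlat, Dbt, Pdhx, Sepsecs, Asgr1 and Ftcd. The tables were normalized separately and no test was made between them. Set side by side, Sp100 averaged 2.06 RPKM in Aire+/+ liver and 39.6 RPKM in thymus, and Dlat averaged 8.57 RPKM in Aire+/+ liver and 9.77 RPKM in thymus.

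**Figure D3:**
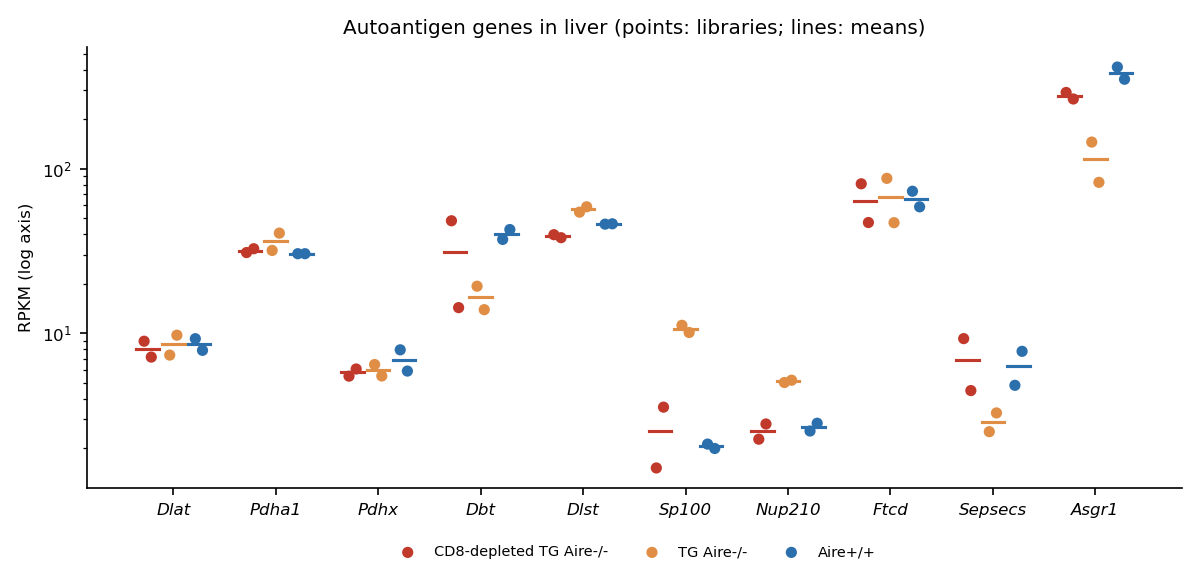
RPKM (log axis) of the 10 autoantigen genes in the 6 livers, by group. Points are libraries and lines are means of 2 libraries. Sp100 and Nup210 are highest and Asgr1 lowest in TG Aire-/- livers, and the 2 CD8-depleted livers lie far apart for Dbt.

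In liver the members did not move as a group. Against Aire+/+, Sp100 and Nup210 rose in TG Aire-/- livers and Asgr1 fell, while the pyruvate dehydrogenase antigens and Ftcd were not called. The livers with CD8 depletion showed the opposite differences for the same 3 genes when set against undepleted TG Aire-/- livers. That comparison shares the TG Aire-/- libraries with the first, so the opposite sign is not independent. Against Aire+/+, limma called 37.3% of 12231 genes in TG Aire-/- livers, 31.8% higher and 5.50% lower, so 3 members of 10 is near the background. CD8-depleted minus undepleted TG Aire-/- livers called 38.0% of genes, 4.49% higher and 33.5% lower, and again 3 members. CD8-depleted TG Aire-/- minus Aire+/+ called 0.548% of genes, 0.221% higher and 0.327% lower, and no member, of which 3 had groups without overlap (28.8% of genes lower, 20.2% higher). Members at an unadjusted p under 0.05 numbered 0 there, against 1327 genes.

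The median gene was itself shifted, by 0.53 in TG Aire-/- minus Aire+/+ and by -0.58 in CD8-depleted minus undepleted TG Aire-/-, so differences are also given relative to it. The split of calls depends on scaling: in TG Aire-/- minus Aire+/+ it was 3892 higher and 673 lower as deposited, 2148 and 1191 after median-of-ratios scaling, and 1631 and 1502 after quantile normalization. In CD8-depleted minus undepleted TG Aire-/- it was 549 higher and 4097 lower as deposited, 923 and 2001 after median-of-ratios scaling, and 1208 and 1420 after quantile normalization. Cell markers moved with these groups. The 10 hepatocyte markers summed to 71033 and 41373 RPKM in CD8-depleted and 40472 and 26704 RPKM in undepleted TG Aire-/- livers, against 63216 and 62853 RPKM in Aire+/+ livers. The 10 macrophage markers summed to 148 and 539 RPKM in CD8-depleted and 1182 to 1260 RPKM in undepleted TG Aire-/- livers, against 167 to 187 RPKM in Aire+/+ livers. No marker of either list was at 0 in any liver.

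Cd8a had 0 and 0.187 RPKM in CD8-depleted and 8.76 and 3.75 RPKM in undepleted TG Aire-/- livers, against 0.161 and 0.220 RPKM in Aire+/+ livers. The 9 T cell markers measured summed to 8.07 to 14.0 RPKM in CD8-depleted and 34.3 to 53.1 RPKM in undepleted TG Aire-/- livers, against 2.97 to 3.53 RPKM in Aire+/+ livers. Adipocyte markers, 7 genes of which up to 5 were at 0, summed to 3.13 to 8.05 RPKM in CD8-depleted and 277 to 634 RPKM in undepleted TG Aire-/- livers, against 6.22 to 10.2 RPKM in Aire+/+ livers. The part of these cell markers in the members' differences was not tested.

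Sp100 had 1.52 and 3.56 RPKM in CD8-depleted TG Aire-/- livers and 11.2 and 10.1 RPKM in undepleted TG Aire-/- livers, against 2.12 and 1.99 RPKM in Aire+/+ livers. Both undepleted TG Aire-/- livers lie above the other 4, and the CD8-depleted pair brackets the Aire+/+ pair. The difference was 1.93 (SE 0.323, 95% interval 1.17 to 2.68, limma adjusted p 0.00522) for TG Aire-/- minus Aire+/+, and 1.40 relative to the median gene. For CD8-depleted minus undepleted TG Aire-/- it was -1.78 (SE 0.323, -2.53 to -1.03, limma adjusted p 0.00707), and -1.20 relative to the median gene. Sp100 was called in both comparisons under all 15 alternative settings, with adjusted p-values up to 0.0387 and 0.0449.

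**Figure D4:**
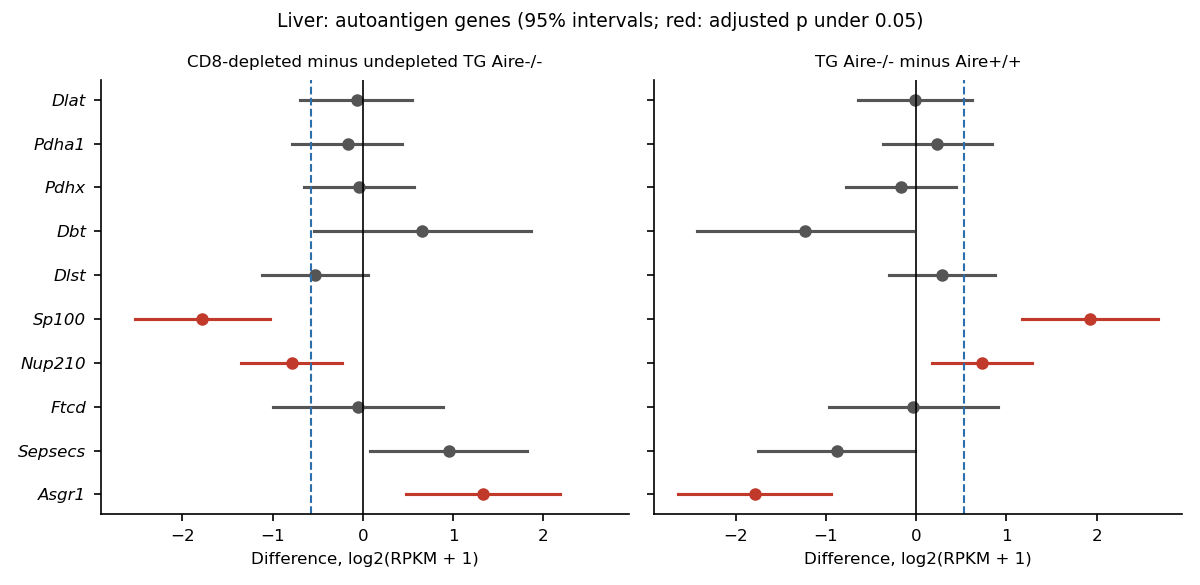
Differences on the log2(RPKM + 1) scale (x axis) with 95% intervals for the 10 autoantigen genes in liver. Left, CD8-depleted minus undepleted TG Aire-/-; right, TG Aire-/- minus Aire+/+; red marks a limma adjusted p under 0.05 and the dashed blue line is the median of all genes. Sp100, Nup210 and Asgr1 are red on both sides, and Nup210 lies within 0.21 of the dashed line in each.

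Interferon-stimulated genes and other genes of PML bodies moved in the same livers. Of the 20 interferon-stimulated genes 15 rose and none fell in TG Aire-/- livers against Aire+/+, where 31.8% of all genes rose. Their median was 1.96 against 0.53 over all genes, and 9 rose without the filter on low values. In CD8-depleted against undepleted TG Aire-/- livers 11 of 20 fell (7 without the filter), where 33.5% of all genes fell with the filter. The median was -1.39 against -0.58. Gbp2, a guanylate-binding protein, averaged 12.04 RPKM in CD8-depleted and 95.2 RPKM in undepleted TG Aire-/- livers, against 2.58 RPKM in Aire+/+. Of 10 PML body genes 5 rose in TG Aire-/- livers against Aire+/+, where 31.8% of all genes rose, with a median of 0.88 against 0.53. Largest among them were Sp140 and Sp110, relatives of Sp100, and the first averaged 4.57 RPKM in CD8-depleted and 12.8 RPKM in undepleted TG Aire-/- livers, against 1.32 RPKM in Aire+/+. Sp110 averaged 1.58 RPKM in CD8-depleted and 7.86 RPKM in undepleted TG Aire-/- livers, against 0.891 RPKM in Aire+/+. In CD8-depleted against undepleted TG Aire-/- livers 7 of the 10 fell (4 without the filter), where 33.5% of all genes fell, with a median of -1.14 against -0.58.

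Nup210 had 2.27 and 2.81 RPKM in CD8-depleted and 5.02 and 5.18 RPKM in undepleted TG Aire-/- livers, against 2.54 and 2.84 RPKM in Aire+/+ livers. The undepleted TG Aire-/- pair lies above the other 4. The difference was 0.73 (0.17 to 1.28, limma adjusted p 0.0476) for TG Aire-/- minus Aire+/+ and -0.79 (-1.35 to -0.23, adjusted p 0.0359) for CD8-depleted minus undepleted TG Aire-/-. Relative to the median gene these were 0.19 and -0.21, and after quantile normalization 0.02 and -0.08. Nup210 kept its call in 4 of 15 alternative settings in each comparison, with adjusted p-values of 0.0404 to 0.961 and 0.0349 to 0.807. Of 14 other nuclear pore genes 8 rose in TG Aire-/- livers against Aire+/+ (5 without the filter), the largest being the basket protein Tpr, at 15.1 RPKM in TG Aire-/- and 4.50 RPKM in Aire+/+. Their median was 0.88, against 0.53 over all genes, of which 31.8% rose with the filter. In CD8-depleted against undepleted TG Aire-/- livers 8 of 14 fell, where 33.5% of all genes fell, with a median of -0.91 against -0.58.

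Asgr1 fell in TG Aire-/- livers. It had 291 and 266 RPKM in CD8-depleted and 145.5 and 82.8 RPKM in undepleted TG Aire-/- livers, against 416 and 351 RPKM in Aire+/+ livers. The 3 groups do not overlap, and the CD8-depleted livers lie between the others. The difference was -1.79 (SE 0.365, -2.64 to -0.94, limma adjusted p 0.00959) for TG Aire-/- minus Aire+/+, and -2.32 relative to the median gene. For CD8-depleted minus undepleted TG Aire-/- it was 1.33 (0.48 to 2.19, adjusted p 0.0260). The call held in 12 of 15 alternative settings for the first and 8 of 15 for the second, with adjusted p-values of 0.00712 to 0.0883 and 0.0178 to 0.113. It was lost in the first without either Aire+/+ liver or without TG Aire-/- replicate 2, where the difference was -1.67, -1.91 and -1.39. In the second it was lost without either Aire+/+ liver (1.33 each), TG Aire-/- replicate 2 (0.93) or CD8-depleted replicate 1 (1.27). It was also lost without the filter on low values (1.33, limma adjusted p 0.0516), with only the groups compared (1.33, adjusted p 0.0613) and with sex as a covariate (1.07, adjusted p 0.0840), the last chosen after seeing the data. Asgr2, which codes for the other subunit of the receptor, averaged 86.0 RPKM in CD8-depleted and 28.0 RPKM in undepleted TG Aire-/- livers, against 132 RPKM in Aire+/+, and was called in both comparisons (-2.24 against Aire+/+, limma adjusted p 0.00405).

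Ftcd, also a gene of hepatocytes, was not called. It had 81.1 and 47.2 RPKM in CD8-depleted and 87.5 and 47.1 RPKM in undepleted TG Aire-/- livers, against 73.1 and 58.7 RPKM in Aire+/+ livers. The Aire+/+ pair lies inside the range of each other pair. Its difference was -0.03 (-0.97 to 0.91) for TG Aire-/- minus Aire+/+. The interval does not reach the estimate of -1.79 for Asgr1, but the difference between the 2 genes was not tested. Of 7 other genes of histidine breakdown and folate metabolism 6 fell in TG Aire-/- livers against Aire+/+, where 5.50% of all genes fell. Gnmt, which methylates glycine and binds folate, averaged 723 RPKM in CD8-depleted and 94.1 RPKM in undepleted TG Aire-/- livers, against 831 RPKM in Aire+/+, and Aldh1l1, a folate dehydrogenase, averaged 222 RPKM in CD8-depleted and 47.4 RPKM in undepleted TG Aire-/- livers, against 200 RPKM in Aire+/+. In CD8-depleted against undepleted TG Aire-/- livers 4 of the 7 rose, where 4.49% of all genes rose.

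Dbt and Sepsecs were lower in both TG Aire-/- livers than in either Aire+/+ liver without passing the test. Dbt had 48.3 and 14.3 RPKM in CD8-depleted and 19.3 and 13.9 RPKM in undepleted TG Aire-/- livers, against 37.2 and 42.7 RPKM in Aire+/+ livers. One CD8-depleted liver is the highest of the 6 and the other falls within the undepleted pair. TG Aire-/- minus Aire+/+ was -1.23 (-2.43 to -0.03, limma adjusted p 0.0948, range over settings 0.0139 to 0.347), and it was called without either CD8-depleted liver. CD8-depleted minus undepleted TG Aire-/- was 0.66 (-0.54 to 1.86) and turned with the CD8-depleted library: it was 1.5 without replicate 2 (limma adjusted p 0.0158) and -0.18 without replicate 1. Of 6 partners of Dbt and Dlst that could be tested, 3 fell in TG Aire-/- livers against Aire+/+, where 5.50% of all genes fell. They were Bckdha and Bckdhb, the E1 subunits of the branched-chain complex, and Ppm1k, its phosphatase. Bckdha averaged 47.2 RPKM in TG Aire-/- and 110 RPKM in Aire+/+ livers.

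Sepsecs had 9.28 and 4.48 RPKM in CD8-depleted and 2.52 and 3.28 RPKM in undepleted TG Aire-/- livers, against 4.82 and 7.77 RPKM in Aire+/+ livers. The undepleted pair is the lowest. Its difference for TG Aire-/- minus Aire+/+ was -0.88 (-1.75 to -0.01, limma adjusted p 0.0976, range over settings 0.0298 to 0.444), and CD8-depleted minus undepleted TG Aire-/- was 0.95 (0.08 to 1.82, limma adjusted p 0.0783, range 0.0266 to 0.327). Without CD8-depleted replicate 2 the second was 1.41 with a limma adjusted p of 0.0266. Of 7 other genes of selenocysteine synthesis, Sars rose and Sephs2, which makes selenophosphate, fell in TG Aire-/- livers against Aire+/+. Counting by overlap, 7 of the 10 members had separate groups in this comparison (3 lower, 4 higher), where 63.0% of all genes were higher and 15.4% lower without overlap. In CD8-depleted minus undepleted TG Aire-/- livers it was 5 of 10 (3 lower, 2 higher), where 60.6% of genes were lower and 10.1% higher.

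The antigens of the pyruvate and 2-oxoglutarate complexes were not called in any liver comparison. Dlat had 8.95 and 7.17 RPKM in CD8-depleted and 7.37 and 9.74 RPKM in undepleted TG Aire-/- livers, against 9.27 and 7.87 RPKM in Aire+/+ livers. The 3 pairs overlap, and the differences were -0.01 (-0.64 to 0.62) for TG Aire-/- minus Aire+/+ and -0.07 (-0.70 to 0.55) for CD8-depleted minus undepleted TG Aire-/-. Over the 6 livers Pdhx ranged from 5.49 to 7.93 RPKM, Pdha1 from 30.5 to 40.7 RPKM and Dlst from 38.1 to 58.8 RPKM, and none was called. Relative to the median gene, TG Aire-/- minus Aire+/+ was -0.54 for Dlat, -0.71 for Pdhx, -0.30 for Pdha1 and -0.25 for Dlst. Among their 9 partners Pdk4 and Pdk3, kinases that switch pyruvate dehydrogenase off, rose. Pdk4 averaged 2.55 RPKM in CD8-depleted and 62.8 RPKM in undepleted TG Aire-/- livers, against 4.58 RPKM in Aire+/+ (3.19 for TG Aire-/- minus Aire+/+, limma adjusted p 0.0107). Gcsh, which carries lipoic acid in glycine breakdown, was the 1 gene of 5 for lipoate attachment that fell in TG Aire-/- livers.

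Other genes followed the members closely over the 6 livers, where few points are compared with many genes. The most similar profiles by Pearson r over the 6 livers were Cc2d1b, Nudcd2 and AB124611 for Sp100 (each at 0.999 or above), Rtl8c (0.999), Nt5c3b and Gm10336 (0.998 each) for Nup210, and Tex261 (0.961), Pex19 (0.946) and Elac2 (0.934) for Dlat. Over the 9 thymus libraries they were Hlcs (0.982), Zfand2a (0.975) and Tns1 (0.973) for Nup210 and Shoc2 (0.976), Ing5 and Kctd7 (0.971 each) for Dlat. For each of these members, the 3 most similar genes in thymus and in liver were different genes.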

How the data were processed

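The authors deposited RPKM values, 1 table for thymus and 1 for the second batch of livers. Per the submitters' processing notes, the aligner was STAR (version 2.5.2b) and the build mm10; for the annotation, the counting and its use of strand, the sources used here give nothing. Libraries were made by Illumina or BGI protocols, per the labels' protocols. Reads could not be recovered from the RPKM steps, so no count test was run, and depths are rough estimates that cover counting error only. At the inferred depths 40.5% to 49.0% of low values were whole within 0.1 read. Evenly spread values give 20%, but each depth was chosen for the best fit to whole reads, so 20% understates chance.

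Values were tested as log2(RPKM + 1) with limma 3.58.1 in R 4.3.3 (lmFit, eBayes with intensity trend, two-sided), all groups of a table in 1 fit. Genes needed 1 RPKM in at least 3 thymus or 2 liver libraries. Named genes were all 10 members, then, from each list, up to 4 genes called in each direction, or the 2 with the smallest p. The members and lists were chosen with earlier results of these data known. On simulated data with 200 changed genes, the TG Aire-/- minus TG Aire+/- thymus comparison (12568 genes) recovered 28.7% of 2-fold and 79.5% of 4-fold changes, with 5.75% false calls. The TG Aire-/- minus Aire+/+ liver comparison (12231 genes) recovered 0.6% and 36.2%, with 2.65% false calls. The changed genes were drawn only from those with a mean above 2 on the log2(RPKM + 1) scale. In the real liver comparison limma called 37.3% of genes, many more than were changed in the simulation. The adjusted threshold is easier to pass there, so the simulated shares do not give the recovery of that comparison. The 4 livers without a batch number and the sorted CD8+ T cells were not analysed here.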

Additional observations from a re-analysis of the deposited data

How the results depend on the processing

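None of the 8 members tested in thymus was called there under any alternative tried, leaving out each library included. Ftcd and Asgr1 were tested in thymus only without the filter on low values, with and without replicate 1 of TG Aire-/-, and were not called. Both are too low there for a fall to show. In CD8-depleted TG Aire-/- minus Aire+/+ livers none of the 10 was called under any alternative. Sp100 was called in the other liver comparisons in every alternative. With 2 livers a group, small changes cannot be resolved. The cause of the changes below was not tested, except that other filters and fewer libraries change what enters the fit.

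Without the filter on low values, genes called numbered 57 for TG Aire-/- minus TG Aire+/- thymus, 41 for Aire-/- minus TG Aire+/- and 57 for the mean of both Aire-null groups; without the intensity trend the last was 4. Without the filter and without replicate 1 of TG Aire-/-, a combination chosen after seeing the data, they numbered 76, 51 and 88, and 17 for TG Aire-/- minus Aire-/-. That last comparison called 2 genes as reported and 0 without the filter, with median-of-ratios or quantile scaling, with a replicate block, with sex as a covariate (coded from Xist, and chosen after seeing the data) or with only the groups compared. CD8-depleted minus undepleted TG Aire-/- livers called 1 member without the filter, with sex as a covariate or with only the groups compared. It called 2924 genes with median-of-ratios scaling, 2628 with quantile normalization and 2945 with sex as a covariate. CD8-depleted TG Aire-/- minus Aire+/+ called 17, 16 and 17 genes without the filter, with sex and with only the groups compared.

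Replicate numbers did not pair the samples throughout. Same-numbered thymus libraries correlated at -0.183 to 0.766 in their deviations, and livers at -0.145 to 0.292. With 2 livers a group, deviations from the group mean are exact opposites. Differently numbered livers thus give the same values with the sign reversed and add no separate comparison. Differently numbered thymus libraries correlated at -0.757 to 0.55. Same-numbered libraries of Aire-/- and TG Aire+/- thymus were at 0.674, -0.180 and 0.766, so a partial pairing of those 2 groups is not settled. With the replicate block, 4341 genes were called in TG Aire-/- minus Aire+/+, 4427 in CD8-depleted minus undepleted TG Aire-/- and 63 in CD8-depleted TG Aire-/- minus Aire+/+, and Nup210 lost its calls. With the CD8-depleted numbers crossed, also chosen after seeing the data, the counts were 4838, 4896 and 94.

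The highest thymus counts below came without replicate 1 of TG Aire-/-. The lowest counts for TG Aire-/- minus Aire+/+ and for CD8-depleted minus undepleted livers came without TG Aire-/- replicate 2, and 141 without CD8-depleted replicate 1. Leaving out 1 library at a time, the counts ranged from 0 to 50 in TG Aire-/- minus TG Aire+/-, 0 to 4 in Aire-/- minus TG Aire+/-, 0 to 15 for the mean, 0 to 19 in TG Aire-/- minus Aire-/-, 1270 to 5102 (1 to 4 members) in TG Aire-/- minus Aire+/+ livers, 1294 to 4723 (1 to 5 members) in CD8-depleted minus undepleted TG Aire-/-, and 13 to 141 in CD8-depleted TG Aire-/- minus Aire+/+.

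All changes of sign belong to differences that did not pass the test. With median-of-ratios scaling, TG Aire-/- minus TG Aire+/- became 0.09 for Pdhx, 0.04 for Dbt, 0.12 for Dlst and 0.06 for Sp100; Aire-/- minus TG Aire+/- 0.02 for Dlst; the mean 0.06 for Pdhx, 0.07 for Dlst and 0.02 for Sepsecs. For TG Aire-/- minus Aire-/- it became 0.02 for Pdha1, 0.05 for Pdhx, 0.11 for Dbt and 0.10 for Dlst, TG Aire-/- minus Aire+/+ -0.25 for Pdha1 and -0.20 for Dlst, and CD8-depleted minus undepleted 0.43 for Dlat and Pdhx, 0.37 for Pdha1, 0.02 for Dlst and 0.50 for Ftcd. With quantile normalization the first became 0.05 for Pdhx, 0.07 for Dlst and 0.01 for Sp100, the second -0.01 for Pdhx and 0.03 for Dlst, the mean 0.02 for Pdhx and 0.05 for Dlst, and TG Aire-/- minus Aire-/- 0.06 for Pdhx, 0.11 for Dbt and 0.04 for Dlst. In liver it gave -0.04 for Pdha1 in TG Aire-/- minus Aire+/+, 0.55 for Dlat, 0.23 for Pdha1 and Ftcd and 0.63 for Pdhx in CD8-depleted minus undepleted, and 0.06 for Ftcd in CD8-depleted TG Aire-/- minus Aire+/+. With sex as a covariate Sepsecs was at 0.01 for the mean of the Aire-null groups.

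Without the filter and replicate 1 of TG Aire-/-, TG Aire-/- minus TG Aire+/- was 0.03 for Pdhx, 0.07 for Dbt, 0.06 for Dlst and -0.01 for Nup210; the mean 0.02 for Pdhx and Dlst and 0.01 for Sepsecs; TG Aire-/- minus Aire-/- 0.06 for Pdha1, 0.03 for Pdhx, 0.16 for Dbt and 0.07 for Dlst.

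With 1 library left out, signs changed within these ranges. TG Aire-/- minus TG Aire+/- ran from -0.15 to 0.09 for Pdhx, -0.25 to 0.07 for Dbt, -0.15 to 0.06 for Dlst, -0.08 to 0.22 for Nup210 and -0.64 to 0.12 for Aire. Aire-/- minus TG Aire+/- ran from -0.18 to 0.25 for Dlat, -0.08 to 0.15 for Pdhx, -0.07 to 0.08 for Dlst and -0.04 to 0.63 for Sepsecs. The mean ran from -0.21 to 0.01 for Dlat, -0.12 to 0.12 for Pdhx, -0.08 to 0.02 for Dlst and -0.17 to 0.17 for Sepsecs. In TG Aire-/- minus Aire-/- it ran from -0.28 to 0.06 for Pdha1, -0.15 to 0.03 for Pdhx, -0.15 to 0.16 for Dbt and -0.14 to 0.07 for Dlst. In liver TG Aire-/- minus Aire+/+ ran from -0.19 to 0.17 for Dlat, -0.36 to 0.01 for Pdhx and -0.47 to 0.41 for Ftcd. CD8-depleted minus undepleted ran from -0.25 to 0.11 for Dlat, -0.14 to 0.06 for Pdhx, -0.18 to 1.5 for Dbt and -0.49 to 0.39 for Ftcd. CD8-depleted TG Aire-/- minus Aire+/+ ran from -0.23 to 0.06 for Dlat, -1.42 to 0.27 for Dbt, -0.28 to 0.58 for Sp100, -0.17 to 0.05 for Nup210, -0.47 to 0.30 for Ftcd and -0.38 to 0.52 for Sepsecs.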

Other observations

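Other human autoantibody targets of liver disease moved in both directions in liver. Of 17 such genes, 4 rose and 5 fell in TG Aire-/- livers against Aire+/+, where 31.8% of all genes rose and 5.50% fell. Their median difference was 0.11, against 0.53 over all genes. In CD8-depleted against undepleted TG Aire-/- livers 4 rose and 6 fell, where 4.49% of all genes rose and 33.5% fell, with a median of 0.06 against -0.58. The cytochrome P450 gene Cyp1a2, whose human counterpart is a target in hepatitis of autoimmune polyglandular syndrome, averaged 125 RPKM in CD8-depleted and 0.934 RPKM in undepleted TG Aire-/- livers, against 227 RPKM in Aire+/+ livers. Ugt1a1, a glucuronosyltransferase, averaged 304 RPKM in CD8-depleted and 53.1 RPKM in undepleted TG Aire-/- livers, against 322 RPKM in Aire+/+ livers. Hk1, hexokinase 1, averaged 0.782 RPKM in CD8-depleted and 15.3 RPKM in undepleted TG Aire-/- livers, against 0.637 RPKM in Aire+/+ livers. Cyp and Ugt1a genes have close relatives whose reads may be split. In thymus none of the 12 that could be tested was called in TG Aire-/- or Aire-/- against TG Aire+/-. Without replicate 1 of TG Aire-/-, 1 of the 12, the cytochrome P450 gene Cyp2a5, was called lower in that group, and none of the 17 without the filter on low values.

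The mucosal gene Tff3, lower in both Aire-null thymus groups than in TG Aire+/-, was higher in liver: it averaged 41.9 RPKM in CD8-depleted and 194 RPKM in undepleted TG Aire-/- livers, against 10.0 RPKM in Aire+/+ livers (3.8 for TG Aire-/- minus Aire+/+, limma adjusted p 0.00492).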
